A study of Mus musculus with 21 samples.

Results

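C2C12 is a mouse myoblast line whose cells leave the cell cycle and fuse into myotubes when they differentiate in culture. The comparison described here set wild-type (WT) C2C12 cells after 5 days under methionine restriction, 2 libraries, against WT cells at day 0, the starting myoblasts, 2 libraries. These were chosen by their labels as 4 of the 20 H3K36me3 libraries of the series, which also holds WT cells at day 1, WT cells at day 5 in control medium and Setd2 knockout lines. The WT cells at day 5 in control medium, 2 libraries, served as a further comparison, and all 10 WT libraries entered the gene test. No group used here carried a deletion or transgene, per the labels. All came from this 1 cell line, and the labels do not say whether replicates were separate cultures, so p-values measure only the spread between these libraries.

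H3K36me3 is laid down over the bodies of transcribed genes by SETD2, which travels with elongating RNA polymerase II, and it typically builds up towards the 3′ end. The methyl group comes from S-adenosylmethionine, which cells make from methionine. In differentiating muscle, genes of DNA replication and mitosis are shut off while genes of the contractile apparatus are switched on. The data are lists of peaks, 1 list per library, so a value here says where the authors found peaks and over what length, and not how much of the mark was there. Cover is the percent of a gene body inside the merged peaks of a library, and marked genes are those covered to 50% or more. The sequencing depth of the libraries is unknown.

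The day 0 lists had 73037 and 86381 peaks over 178.6 and 159.2 Mb, and the restricted day 5 lists had 63608 and 63423 peaks over 131.3 and 134.2 Mb. At day 5 in control medium the lists had 87398 and 87266 peaks over 183.5 and 170.9 Mb. Both restricted libraries were thus below both day 0 libraries in peaks and in covered length, but 2 libraries against 2 cannot go below 0.333 in an exact permutation test, and both tests gave that value (two-sided). The day 0 replicates differed more from each other than the restricted replicates did: the spread between replicates relative to the fitted spread was 1.29 at day 0 and 0.771 at restricted day 5.

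The starting cells carried the mark on myoblast genes. Of 6 myoblast markers, 4 were marked in both day 0 libraries: Myod1, Des, Cdh15 and Itga7. Of the same 6, 2 were marked in both restricted libraries and 5 in both control day 5 libraries. They summed to 353 to 359 points at day 0, 215 to 219 at restricted day 5 and 398 to 409 at control day 5. The 6 myotube markers summed to 61.2 to 81.5 points at day 0, all from Ttn. At restricted day 5 they summed to 185 to 197 points and at control day 5 to 517 to 539. All 4 osteoblast markers, all 4 endothelial markers and all 4 epithelial markers were listed at 0 in the 4 libraries, as were the adipocyte markers Adipoq, Plin1 and Fabp4, while Pparg had 0.577% to 1.94%. The fibroblast marker Dcn, which encodes decorin, was listed at 0 in both day 0 libraries and had 12.8% and 11.2% in the restricted ones and 34.7% and 26.0% at control day 5, while Lum and Tcf21 were listed at 0 throughout and Pdgfra had 1.22% and 3.23% at day 0 and 0 in both restricted libraries. The summed cover of the 4 fibroblast markers ranged from 1.22 to 3.23 points at day 0 from 11.2 to 12.8 points at restricted day 5 and from 26.0 to 34.7 points at control day 5. Of the 4 leukocyte markers, Ptprc and Cd3e were listed at 0. Csf1r had 10.2% and 10.1% at day 0, 6.51% and 7.18% under restriction and 9.26% and 9.41% at control day 5, a difference from day 0 that was not called (limma adjusted p = 0.225). Cd68, a gene just under 2 kb long, went from 100% in both day 0 libraries to 15.9% and 0, with 94.0% and 98.2% at control day 5. Of the neuron markers, 3 were listed at 0, and Tubb3, a tubulin gene, fell from 64.3% and 64.2% to 23.6% and 35.7%, with 47.9% and 39.3% at control day 5. Tubb3 has an annotated pseudogene copy, and its fall was not called with peaks of a −log10 q of at least 3 (limma adjusted p = 0.0995) or in lists trimmed to equal covered length (0.113). The part of other cell types in the results below was not tested.

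How far restricted cells left the myoblast pattern was first asked of the territory as a whole. Of 219.6 Mb inside a peak of any of the 4 libraries, 88.2 Mb, or 40.1%, lay in all 4. A further 30.0 Mb lay in both day 0 libraries and in neither restricted library, and 6.38 Mb lay in both restricted libraries and in neither day 0 library. Most of the lost territory was in short pieces, with a median of 332 bp over 58389 regions. Of its bases, 46.6% were inside peaks of both control day 5 libraries and 29.2% were in neither. Of the gained bases, 55.1% were also in both control day 5 libraries. The Jaccard index, which is shared bases over bases in either list, was 0.697 on average within groups and 0.564 between day 0 and restricted day 5 (exact permutation test, one-sided, p = 0.333, the smallest this design can give).

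The widest region present in both day 0 lists and absent from both restricted lists was 23812 bp at chr11:40705883-40729694 (GRCm38), inside Hmmr, a gene for a spindle-associated hyaluronan receptor. Of the 12 widest, 3 were in Hmga2, a chromatin protein of proliferating and embryonic cells, and Iqgap3, Knstrn, Sema7a, Espl1, Mki67 and Nfic held 1 each. The other pair overlapped no annotated gene: chr15:85671942-85689193, 14.6 kb from Lncppara, and chr6:31074471-31088367, 5.196 kb from Lncpint. These were covered to 96.5% and 96.9% in replicate 1 of control day 5, whereas the Hmmr stretch was covered there to 24.8%. Among the 12 widest gained regions, 6 were in Neb, and Myom2, Ccdc88c and Cacna1s held 1 each. The widest of them spanned 27325 bp at chr2:52189138-52216462, inside Neb.

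Gene bodies showed the same loss gene by gene. Cover was tested in 9514 protein-coding genes that are 2 kb or longer and whose cover averaged 5% or more over the WT libraries. Restriction for 5 days left 4524 of them changed from day 0, or 47.6% (limma, Benjamini-Hochberg adjusted p under 0.05). Of all tested genes, 385 (4.05%) rose and 4139 (43.5%) fell, and the median difference was -9.84 percentage points. In control medium, which shares the day 0 libraries, 1157 genes (12.2%) rose and 1484 (15.6%) fell from day 0, with a median of -1.17 points. The libraries of day 0 and restricted day 5 did not overlap in 7130 tested genes, or 74.9%. Peaks of a −log10 q of 3 or more alone gave 310 genes (3.79%) higher and 2851 (34.8%) lower. The split depends on scaling: lists trimmed to equal covered length gave 1088 genes (13.1%) higher and 2004 (24.1%) lower, and centring each library on its median, which adds 19.05 points to each difference, gave 4280 (45.0%) higher and 1402 (14.7%) lower.

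**Figure D1:**
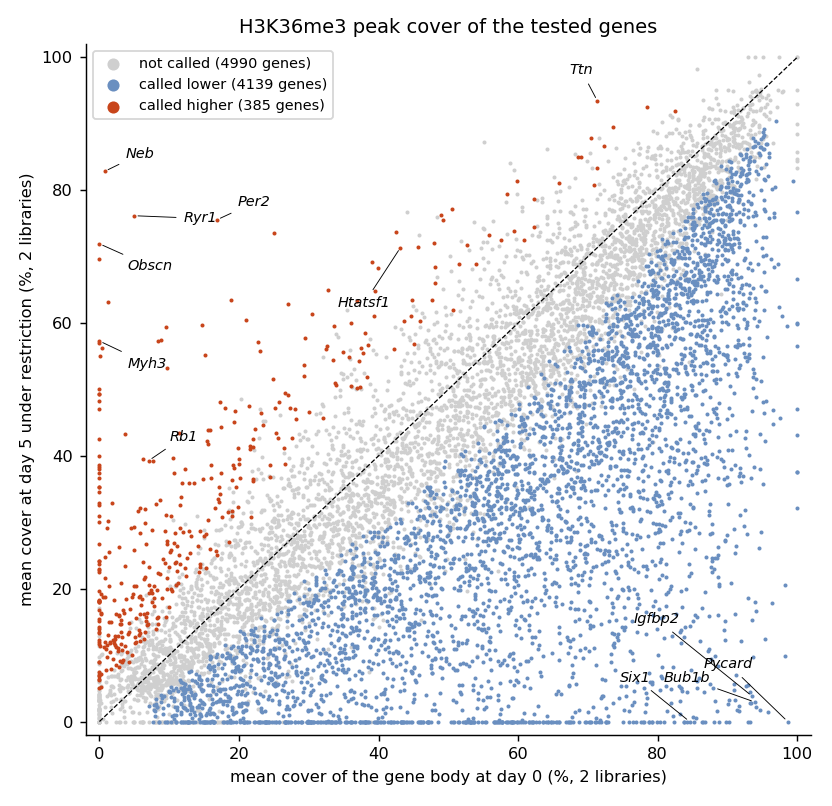
Mean cover at day 0 (horizontal axis, %) and at day 5 under methionine restriction (vertical axis, %) for 9514 genes, each point a gene and the mean of 2 libraries. Red points are the 385 genes called higher and blue points the 4139 called lower, and most of the cloud lies below the dashed line of equal cover, with a row of genes at 0 on the vertical axis.

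Counted as marked genes, 4769 of 19304 genes were marked in both day 0 libraries and 3068 in both restricted libraries. The sets shared 2805 genes, which was 58.8% of the day 0 set and 91.4% of the restricted set. Restriction left 1577 genes marked in both day 0 libraries but in neither restricted library, and 67 genes the other way round. Of the genes marked at day 0, 98 were listed at 0 in both restricted libraries and 10 in both control day 5 libraries. Conversely, 4 genes went from 0 at day 0 to marked in both restricted libraries (among them Myom2, Myh3 and Cacna1s, genes of muscle contraction), and 56 did so in control medium.

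The largest gains were on genes of the sarcomere and of calcium release. Neb encodes nebulin, the giant protein that runs along the thin filament. Its cover was 0.849% and 0.70% at day 0, 81.2% and 84.5% at restricted day 5, and 95.7% and 95.1% at control day 5. The rise from day 0 under restriction was 82.1 points (SE 3.33, limma adjusted p = 7.39e-06). Ryr1, the calcium release channel of skeletal muscle, went from 3.57% and 6.44% to 76.7% and 75.6%, with 96.4% and 96.4% at control day 5. In neither gene did the groups overlap, and in both the restricted libraries stayed below both control day 5 libraries.

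**Figure D2:**
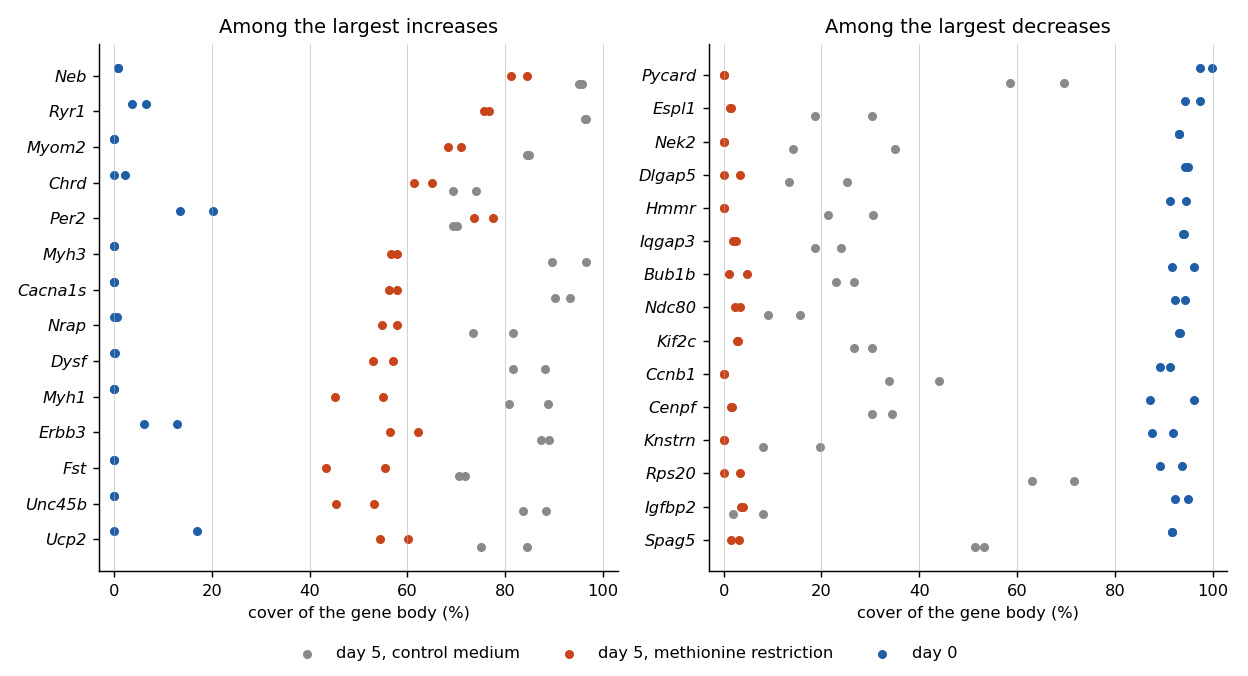
Cover (horizontal axis, % of the gene body) of 14 genes among the largest increases and 15 among the largest decreases from day 0 to restricted day 5, each point a library and 2 libraries per group. Day 0 and restricted day 5 do not overlap in any row, as the choice of rows required, and 13 of the 14 increases, all but Per2, have both restricted libraries below both control day 5 libraries.

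Of 36 sarcomere genes 32 were tested, of which 11 rose and 5 fell, against 4.05% and 43.5% of all tested genes, and the median difference was 2.96 points. Their median cover at day 0 was 0, against 55.2% over all tested genes, and a gene at 0 cannot fall. In control medium 27 rose and 0 fell, against 12.2% and 15.6% of all tested genes. However, 10 of the 32 had a mean cover under 5% over the 8 WT libraries outside control day 5. These 10 passed the filter only through control day 5 and so had to come out higher there, and 17 of the other 22 rose. Compared directly, 31 of the 32 were lower under restriction than in control medium, and 0 were higher (limma, while 45.8% of all tested genes were called in that comparison, 41.5% lower and 4.32% higher). The same 10 could only come out lower here, and 21 of the other 22 were lower. With lists trimmed to equal covered length the count from day 0 was 10 higher and 3 lower, against 13.1% and 24.1% of all genes tested there. After centring it was 24 and 3, against 45.0% and 14.7%, and centring puts members listed at 0 in all 4 libraries, 5 of the 32 and among them Mylpf and Tnni2, at 19.05 points. Besides Neb, the risers included Myom2, an M-band protein gene, which went from 0 in both libraries to 68.2% and 71.0%, with 84.9% and 84.5% at control day 5. Myh3, the embryonic myosin heavy chain, went from 0 in both to 56.7% and 57.8%, below the 96.5% and 89.6% of control medium. Ttn, which encodes titin, was already marked at day 0, with 81.5% and 61.2%, and had 93.5% and 93.4% under restriction. Its rise of 22.1 points (SE 5.73, limma adjusted p = 0.0131) was not called without either restricted replicate (adjusted p = 0.0584 without replicate 1 and 0.0553 without replicate 2) or when only the 4 libraries compared were fitted (0.0859).

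Some other contractile genes already marked at day 0 fell, though Actn3, a fast muscle actinin gene with 55.6% and 59.9% at day 0 and 45.5% and 61.9% under restriction, was not called (limma adjusted p = 0.581). Tpm1, a tropomyosin gene, fell from 91.7% and 90.7% to 43.5% and 44.0%, while control day 5 had 95.3% and 91.9%. Tpm2 fell from 85.1% and 83.0% to 39.8% and 38.9%, with 88.1% and 85.6% at control day 5. Des, which encodes the intermediate filament protein desmin, fell from 83.9% and 89.1% to 43.9% and 42.6%, with 84.7% and 88.8% at control day 5. In all 3 genes both restricted libraries lay below every day 0 and control day 5 library. Another set stayed at 0: Mylpf, Tnni2 and Tnnc2, a fast myosin light chain and fast troponin subunits, were listed at 0 in all 4 libraries. In control day 5 they had 43.5% and 43.5%, 71.3% and 47.2%, and 69.0% and 65.7%.

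The muscle genes that gained cover were mostly long, in a description added after the values were seen. Among sarcomere, calcium, fusion and muscle energy genes with a mean cover under 10% at day 0, 13 of the 14 that are 50 kb or longer rose under restriction, those 13 with means of 13.4% to 82.8%. Of those from 10 to 50 kb 7 of 17 rose, and of those from 2 to 10 kb 0 of 8 rose, 5 of them being listed at 0 in both restricted libraries. Of all tested genes 0.332% rose at 2 to 5 kb and 0.975% at 5 to 10 kb. The share was 2.27% at 10 to 20 kb and 5.31% at 20 to 50 kb. It was 6.13% at 50 to 100 kb and 9.21% over 100 kb. In control medium 8 of 8, 17 of 17 and 12 of 14 of these genes rose, from the shortest class to the longest. Of all tested genes 4.09% (2 to 5 kb) to 27.5% (over 100 kb) rose there. In the same order, 3 of 8, 9 of 17 and 1 of 14 had a mean cover under 5% outside control day 5. These passed the filter on mean cover only through the control day 5 libraries and so had to come out higher there.

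Genes of excitation-contraction coupling went both ways. Of 15 genes 13 were tested, of which 7 rose and 3 fell from day 0 under restriction, against 4.05% and 43.5% of all tested genes, with a median of 6.93 points. Their median cover at day 0 was 6.47%, against 55.2% over all tested genes, which left many of them little room to fall. In control medium 12 rose and 0 fell, against 12.2% and 15.6%, but Casq1 passed the filter on mean cover only through control day 5 and so had to come out higher there, and 11 of the other 12 rose. The counts under restriction were smaller when either restricted library was left out, as they were over all tested genes. Cacna1s, the voltage sensor of the T tubule, went from 0 in both day 0 libraries to 57.8% and 56.3%, with 93.1% and 90.2% at control day 5. Cacng1, an auxiliary calcium channel subunit, went the other way, from 53.1% and 55.3% to 14.6% and 19.4%. Jph2, which holds the T tubule to the sarcoplasmic reticulum, fell from 60.3% and 65.2% to 28.2% and 24.6%, although the fall was not called in lists of equal covered length (adjusted p = 0.0579). Casq1, the fast muscle calsequestrin gene, was listed at 0 in all 4 libraries and had 72.0% and 62.5% at control day 5.

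Fusion and synapse genes split. Of 15 genes 14 were tested, of which 3 rose and 6 fell, against 4.05% and 43.5% of all tested genes, with a median of -5.36 points. After centring 7 rose and 4 fell, against 45.0% and 14.7%, so the share higher was then near that of all tested genes. Dysf, whose product repairs the muscle membrane, went from 0 and 0.148% to 52.9% and 57.1% (rise of 54.9 points, SE 3.46, limma adjusted p = 1.29e-05), and control day 5 had 88.2% and 81.5%. Chrnd, the delta subunit of the acetylcholine receptor, fell from 75.2% and 75.7% to 35.8% and 34.8%, with 85.2% and 81.9% at control day 5. Chrng, the fetal gamma subunit, was listed at 0 in all 4 libraries, while control day 5 had 90.7% and 92.9%. Of 12 muscle energy genes 6 were tested, of which 3 rose and 1 fell, against 4.05% and 43.5% of all tested genes. Their median cover at day 0 was 7.62%, against 55.2% over all tested genes. In lists of equal covered length 1 rose and 1 fell of 5 tested there, against 13.1% and 24.1%. The faller was Eno3, the muscle enolase, which overlaps another gene over 39.1% of its length, from 56.1% and 61.1% to 15.7% and 18.1%.

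Of 15 transcription factors of the muscle programme 11 were tested, of which 0 rose and 7 fell under restriction, against 4.05% and 43.5% of all tested genes, with a median of -17.4 points. In control medium 5 rose and 2 fell, against 12.2% and 15.6%, and 1 of the 5, Mef2c, passed the filter on mean cover only through control day 5. After centring 4 rose and 3 fell, against 45.0% and 14.7% of all tested genes. In lists of equal covered length 0 rose and 2 fell of 7 tested there, beside 24.1% lower among all genes tested there. Myod1, the factor that commits cells to muscle, had 55.1% and 50.1% at day 0, was listed at 0 in both restricted libraries and had 66.8% and 78.4% in control medium. Its fall was 52.6 points (SE 6.18, limma adjusted p = 0.000248), and it was not called with peaks of a −log10 q of at least 3 only (adjusted p = 0.301). Myog, the gene of myogenin, which directs terminal differentiation, was listed at 0 in all 4 libraries but had 91.7% and 93.4% at control day 5. Both genes are under 5 kb long.

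**Figure D3:**
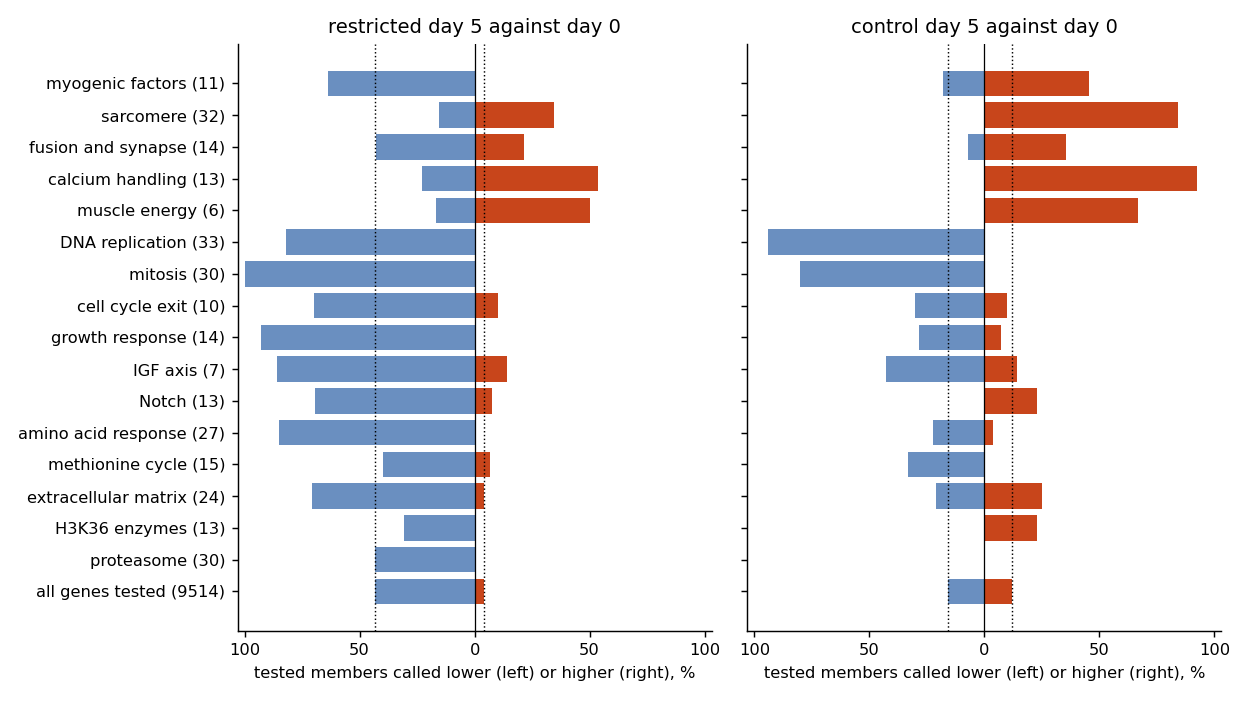
Share of the tested members of each gene list called lower (bars to the left, %) or higher (bars to the right, %) than day 0, at restricted day 5 (left panel) and control day 5 (right panel), with the number tested in brackets. Dotted lines mark the shares over all 9514 genes, and both panels use the same day 0 libraries. Mitosis has 30 of 30 members lower under restriction, and the sarcomere list has 11 of 32 higher under restriction and 27 of 32 in control medium, where 10 of the 27 passed the filter only through the control day 5 libraries.

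Mitosis genes had the lowest median difference of the 16 lists. All 30 members were tested and all 30 fell, with a median of -77.6 points, against 43.5% lower and a median of -9.84 over all tested genes. Centring left 28 lower and equal covered length left 29, with 0 higher in both, against 14.7% and 24.1% lower over all genes. Bub1b, a kinase of the spindle checkpoint, fell from 96.1% and 91.7% to 4.72% and 1.14% (91.0 points, SE 4.02, limma adjusted p = 7.39e-06). Ccnb1, the gene of cyclin B1, fell from 91.4% and 89.2% to 0 in both, although a pseudogene copy of it is annotated and its cover is uncertain on that account. Cenpf, a kinetochore protein gene, fell from 96.2% and 87.2% to 1.79% and 1.48%. Control medium left higher values in these 3 genes, 26.7% and 22.9%, 33.7% and 44.1%, and 34.3% and 30.4%. There 24 of the 30 fell from day 0, with a median of -44.0 points, against 15.6% of all tested genes. The direct comparison called 22 of the 30 lower under restriction than in control medium, against 41.5% of all tested genes. After centring 13 were lower and 2 higher, against 14.7% and 39.5%. In lists of equal covered length 6 of the 30 were lower and 1 higher, against 20.2% and 15.4%, so the share lower was then near that of all tested genes.

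The 15 largest decreases over all genes held 3 members of the mitosis list, Bub1b, Ccnb1 and Cenpf. Of the others, Espl1 encodes separase, Nek2 a centrosomal kinase, Ndc80 a kinetochore subunit, and Kif2c a microtubule-depolymerising kinesin. Espl1 fell from 97.4% and 94.3% to 1.53% and 1.38%, with 30.3% and 18.6% at control day 5. Nek2 fell from 93.2% and 93.2% to 0 in both, with 35.1% and 14.1% at control day 5. The largest fall was on Pycard, which encodes an inflammasome adaptor, from 99.9% and 97.4% to 0 in both, with 69.5% and 58.6% in control medium. Rps20, a ribosomal protein gene, fell from 89.2% and 93.7% to 3.36% and 0. Igfbp2, an insulin-like growth factor binding protein gene, fell from 92.2% and 94.9% to 4.01% and 3.60%. Igfbp2 was as low in control medium, 8.09% and 1.94%, while Rps20 kept 63.0% and 71.6% there.

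Promoter sequences are shown for 3 genes that fell: Plk1 and Cdc20, members of the mitosis list, and Ndc80, which is not in the list. They were chosen because they hold the letters of the cell cycle homology region (CHR), a motif known from genes that are switched off when cells leave the cell cycle. Searched as TTTGAA on both strands, it was present in 18 of 24 mitosis promoters with a sequence, or 75.0%, in 5 of 29 replication promoters, or 17.2%, and in 2894 of 17492 protein-coding promoters, or 16.5%. The promoter of Ccnb1, a list member that also fell, held 0 matches. A match is a description of letters and no evidence of a bound factor. Each sequence runs from 250 bases before to 50 bases after the gene's start, 5′ to 3′ along the gene, from RefSeq on GRCm38.p6, with the motif or its reverse complement in capitals. Plk1 is at chr7:122159185-122159484 on the plus strand, Cdc20 at chr4:118437294-118437593 on the minus strand and Ndc80 at chr17:71526808-71527107 on the minus strand.
Plk1: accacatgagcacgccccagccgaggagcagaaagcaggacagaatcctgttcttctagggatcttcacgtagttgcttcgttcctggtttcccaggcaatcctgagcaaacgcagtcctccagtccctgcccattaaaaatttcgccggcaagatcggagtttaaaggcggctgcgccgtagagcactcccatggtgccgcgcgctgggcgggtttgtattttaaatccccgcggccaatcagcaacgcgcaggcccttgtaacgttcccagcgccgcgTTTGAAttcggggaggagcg
Cdc20: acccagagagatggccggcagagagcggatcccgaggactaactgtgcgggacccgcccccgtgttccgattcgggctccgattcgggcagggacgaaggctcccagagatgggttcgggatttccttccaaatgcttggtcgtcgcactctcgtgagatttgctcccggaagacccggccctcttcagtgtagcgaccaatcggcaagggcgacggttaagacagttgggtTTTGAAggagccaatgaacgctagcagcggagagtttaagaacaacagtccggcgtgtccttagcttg
Ndc80: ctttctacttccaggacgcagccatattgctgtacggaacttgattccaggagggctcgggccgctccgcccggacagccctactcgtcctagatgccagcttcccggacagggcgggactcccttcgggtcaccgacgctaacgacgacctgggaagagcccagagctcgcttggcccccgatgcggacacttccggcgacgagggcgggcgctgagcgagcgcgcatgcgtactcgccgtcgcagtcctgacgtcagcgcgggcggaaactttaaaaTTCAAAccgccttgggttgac
The gene bodies behind these promoters fell, as the choice of genes required. Plk1, a mitotic kinase, went from 90.0% and 92.2% to 0 and 6.45%, Cdc20, the activator of the anaphase-promoting complex, from 81.9% and 78.5% to 18.5% and 15.3%, and Ndc80 from 94.4% and 92.3% to 2.24% and 3.26%.

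A pair of muscle promoters is shown for contrast, since both genes were at 0 at day 0 and only Myh3 had peaks under restriction. The E-box, searched as CAGNTG on both strands, is the motif bound by MyoD and myogenin. It was present in 22 of 29 sarcomere promoters, or 75.9%, and in 8406 of 17492 protein-coding promoters, or 48.1%, but in 1 of 9 promoters of the muscle transcription factors, the list that holds Myog, or 11.1%. Myh3 is at chr11:67078050-67078349 on the plus strand and Myog at chr1:134289754-134290053 on the plus strand, with the E-box in capitals. The Myh3 window is set on a start inside the annotated gene body, which begins at 67078273.
Myh3: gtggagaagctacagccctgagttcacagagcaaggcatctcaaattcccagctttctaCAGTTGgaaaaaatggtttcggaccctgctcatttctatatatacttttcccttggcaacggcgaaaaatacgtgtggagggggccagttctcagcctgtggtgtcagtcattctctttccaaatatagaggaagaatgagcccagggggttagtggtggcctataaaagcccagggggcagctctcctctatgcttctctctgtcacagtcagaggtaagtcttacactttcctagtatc
Myog: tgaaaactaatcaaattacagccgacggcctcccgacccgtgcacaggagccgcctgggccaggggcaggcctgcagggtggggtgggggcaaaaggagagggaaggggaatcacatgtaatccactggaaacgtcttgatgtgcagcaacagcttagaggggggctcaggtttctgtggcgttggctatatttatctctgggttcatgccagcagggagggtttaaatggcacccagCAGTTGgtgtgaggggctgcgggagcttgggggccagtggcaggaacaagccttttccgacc
Each holds 1 match. The promoter windows themselves seldom lay in peaks: of 7711 tested genes with a promoter sequence, 220 and 250 had a base of the window inside a day 0 peak, and 91 and 101 inside a restricted day 5 peak.

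DNA replication genes also fell, some of them less under restriction than in control medium. Of 35 genes 33 were tested, of which 27 fell and 0 rose from day 0 under restriction, with a median of -28.9 points, against 43.5% of all tested genes lower. In control medium 31 fell and 0 rose, with a median of -36.8 points, against 15.6% lower. The direct comparison called 9 higher and 3 lower under restriction than in control medium, against 4.32% and 41.5% of all tested genes. Centring gave 25 higher and 1 lower in that comparison, against 39.5% and 14.7% of all tested genes, and equal covered length gave 17 and 0, against 15.4% and 20.2%. From day 0 centring gave 4 higher and 17 lower, against 45.0% and 14.7%, and equal covered length 0 and 20, against 13.1% and 24.1%. Cdc6, which loads the MCM helicase at origins, fell from 93.9% and 91.4% to 6.44% and 4.22%, with 4.50% and 9.94% in control medium. Mcm10 fell from 87.3% and 88.0% to 14.4% and 4.35%. Mcm3, a subunit of the helicase, fell far less, from 90.6% and 89.8% to 75.7% and 68.1%, and had 20.6% and 19.1% in control medium. Its fall from day 0 was 18.3 points (SE 3.29, limma adjusted p = 0.00222), which centring turned to a rise of 0.764 points, and its excess over control medium was 52.1 points (SE 3.29, adjusted p = 1.64e-05). Mcm4 had 93.3% and 80.7% at day 0, 74.4% and 80.7% under restriction and 35.8% and 38.5% in control medium, and its difference from day 0 was not called (adjusted p = 0.214).

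Among regulators of cell cycle exit, 10 of 15 genes were tested, of which 7 fell and 1 rose, against 43.5% and 4.05% of all tested genes, or 4 and 2 of 8 in lists of equal covered length, against 24.1% and 13.1%. The riser was Rb1, the retinoblastoma gene, which went from 9.76% and 4.40% to 38.4% and 40.2%, with 55.5% and 54.3% in control medium (rise of 32.2 points, limma adjusted p = 0.00014). Ccnd1, the gene of cyclin D1, fell from 84.7% and 84.9% to 11.4% and 4.10% and kept 63.0% and 57.6% in control medium. Cdkn1b, the gene of the cell cycle inhibitor p27, fell from 71.0% and 57.6% to 0 in both and kept 67.4% and 46.5% in control medium. In all 3 genes the restricted libraries overlapped with neither day 0 nor control day 5, while those of day 0 and control day 5 overlapped for Cdkn1b.

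Growth response genes fell nearly as a whole. Of 21 genes 14 were tested, of which 13 fell and 0 rose, with a median of -63.5 points, against 43.5% lower over all tested genes. The tested members were short, with a median of 4.82 kb. Of all tested genes of 2 to 5 kb, 65.4% fell under restriction, with a median of -27.8 points, and 16.6% fell in control medium. After centring 13 fell and 1 rose, against 14.7% and 45.0%. In control medium 4 fell and 1 rose, with a median of -8.47 points, against 15.6% and 12.2% of all tested genes. Compared directly, 13 of the 14 were lower under restriction than in control medium, against 41.5% of all tested genes. Snai1, a repressor of epithelial genes, fell from 89.1% and 98.2% to 19.5% and 0. Ccn1, a matricellular protein gene induced by serum, fell from 80.7% and 94.1% to 0 and 11.3%. Both kept over 70% in each control day 5 library. Hmga2 fell in both media, from 97.9% and 98.6% to 10.5% and 9.12% under restriction and 23.3% and 17.7% in control medium, and it has an annotated pseudogene copy and overlaps another gene over 33.3% of its length.

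Signalling lists moved less evenly. Of 12 genes of the insulin-like growth factor axis 7 were tested, of which 6 fell and 1 rose, against 43.5% and 4.05% of all tested genes. Fewer fell when either restricted library was left out, as was so over all tested genes. After centring 3 rose and 3 fell, against 45.0% and 14.7%. In lists of equal covered length 1 rose and 3 fell of 6, against 13.1% and 24.1%. Irs1, an adaptor of the insulin receptor, fell from 91.5% and 83.2% to 12.7% and 19.03%, with 70.3% and 57.3% at control day 5. Igf2r, the receptor that clears IGF2, of which 32.5% overlaps another gene, rose from 20.6% and 19.3% to 38.9% and 38.6%, with 66.0% and 61.8% at control day 5. Of 14 Notch genes 13 were tested, of which 9 fell and 1 rose, against the same 43.5% and 4.05%. Centring gave 3 higher and 3 lower, against 45.0% and 14.7% of all tested genes, and equal covered length gave 3 and 3 as well, against 13.1% and 24.1%. Fewer fell without day 0 replicate 1 or without either restricted replicate, as was so over all tested genes. The riser was Dll1, a Notch ligand, from 5.47% and 9.82% to 37.3% and 41.1%, with 61.4% and 52.2% at control day 5. Hes1, a Notch target, fell from 59.5% and 63.6% to 0 in both.

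Genes of the response to amino acid shortage, which the factor ATF4 switches on when amino acids run low, fell in most cases. Of 33 genes 27 were tested, of which 23 fell and 0 rose under restriction, against 43.5% and 4.05% of all tested genes, with a median of -30.2 points. After centring 13 fell and 4 rose, against 14.7% and 45.0%. In control medium 6 of the 27 fell and 1 rose, near the 15.6% lower of all tested genes, with 12.2% higher. Ddit4, an inhibitor of mTORC1, fell from 80.1% and 69.9% to 0 in both, with 82.1% and 72.4% in control medium. Eif4ebp1, a translation repressor gene, fell from 76.9% and 76.5% to 19.6% and 20.2%. Chac1, which degrades glutathione, fell from 75.6% and 74.8% to 0 and 27.6%. Atf4 itself was listed at 0 in all 6 libraries of these 3 groups and was not tested.

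Methionine cycle genes fell about as often as all tested genes. Of 21 genes 15 were tested, of which 6 fell and 1 rose, with a median of -10.9 points, beside 43.5% lower and a median of -9.84 points over all. These counts became 6 higher and 1 lower after centring, against 45.0% and 14.7%, and 3 and 3 of 14 in lists of equal covered length, against 13.1% and 24.1%. Both counts were smaller when either restricted library was left out, as they were over all tested genes. The riser was Mtr, methionine synthase, from 76.5% and 64.4% to 87.2% and 88.4% (rise of 17.4 points, limma adjusted p = 0.0167). It was not called without day 0 replicate 2 (adjusted p = 0.0889) or without restricted replicate 1 (0.0648) or 2 (0.0774). Mtrr, the reductase that keeps methionine synthase active, had 80.0% and 69.5% at day 0 and 78.2% and 72.5% under restriction, against 28.9% and 20.1% in control medium. Its difference from day 0 was not called (adjusted p = 0.944), but it was called higher after centring (19.7 points, 0.007) and in lists of equal covered length (33.7 points, 0.0429). Mtap, the enzyme of methionine salvage, fell from 93.0% and 86.9% to 33.3% and 37.9%, and control medium left 59.3% and 56.0%.

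Of 27 matrix genes 24 were tested, of which 17 fell and 1 rose, against 43.5% and 4.05% of all tested genes, with a median of -17.1 points. After centring 7 fell and 6 rose, against 14.7% and 45.0%. Timp2, an inhibitor of matrix proteases, fell from 87.7% and 85.8% to 38.4% and 41.2% and had 90.2% and 88.7% in control medium. Mgp, the gene of matrix Gla protein, went from 61.4% and 56.8% to 0 in both restricted and both control day 5 libraries. Of 14 genes, 13 of them tested, for writers, erasers and cofactors of H3K36 methylation, 4 fell and 0 rose, against 43.5% and 4.05% of all tested genes. After centring 8 rose and 0 fell, against 45.0% and 14.7%, and in lists of equal covered length 2 and 0, against 13.1% and 24.1%. The number lower was smaller without day 0 replicate 1 or without either restricted replicate, as it was over all tested genes. Without day 0 replicate 2 it was larger, while over all tested genes it was smaller. Setd2 had 78.0% and 65.6% at day 0 and 55.6% and 60.7% under restriction, a difference that was not called (adjusted p = 0.0596) but was without day 0 replicate 2 (0.02). Of 32 proteasome genes, 30 of them tested and taken as a housekeeping reference, 13 fell and 0 rose, with a median of -8.77 points, close to the background. After centring 18 rose and 5 fell, against 45.0% and 14.7%. In lists of equal covered length it was 8 lower, against 24.1% of all genes tested there. The number lower was also smaller without day 0 replicate 1, as it was over all tested genes. In control medium 0 rose and 0 fell (limma), against 12.2% and 15.6% of all tested genes.

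The share of genes that fell from day 0 was lower in the longer length classes, and the longest genes also had the lowest cover at day 0. Among tested genes of 2 to 5 kb, 65.4% fell and 0.332% rose, with a median of -27.8 points. Among genes over 100 kb, 32.1% fell and 9.21% rose, with a median of -3.45 points, and the shares of the classes between fell in order. The median day 0 cover was 56.5%, 62.8%, 65.1%, 60.1%, 42.0% and 22.6% from the shortest to the longest class. In control medium the share that fell stayed between 12.9% and 16.6% in every class, while the share that rose went from 4.09% in the shortest to 27.5% in the longest and the median from -5.73 to 3.903 points. Compared directly, the share lower under restriction than in control medium showed no such order, at 53.8%, 45.7%, 37.2%, 38.3%, 39.8% and 45.6% from the shortest to the longest class. Under equal covered length the shortest class still had 49.2% lower and 1.39% higher, whereas the longest had 32.8% higher and 11.7% lower. Of 484 genes of 2 to 5 kb marked in both day 0 libraries, 19.8% and 20.9% were listed at 0 in the restricted libraries, against 1.65% and 1.24% in the control day 5 libraries. Among genes marked in both day 0 libraries the loss was not in order of length. The share still marked in the restricted libraries was 30.8% and 32.0% at 2 to 5 kb, 54.6% and 55.5% at 5 to 10 kb, 69.8% and 70.2% at 10 to 20 kb and 70.1% and 71.8% at 20 to 50 kb. It was 64.1% and 66.7% at 50 to 100 kb and 47.0% and 51.3% in the 117 genes over 100 kb. A short gene can hold fewer peaks, so its cover moves in larger steps.

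**Figure D4:**
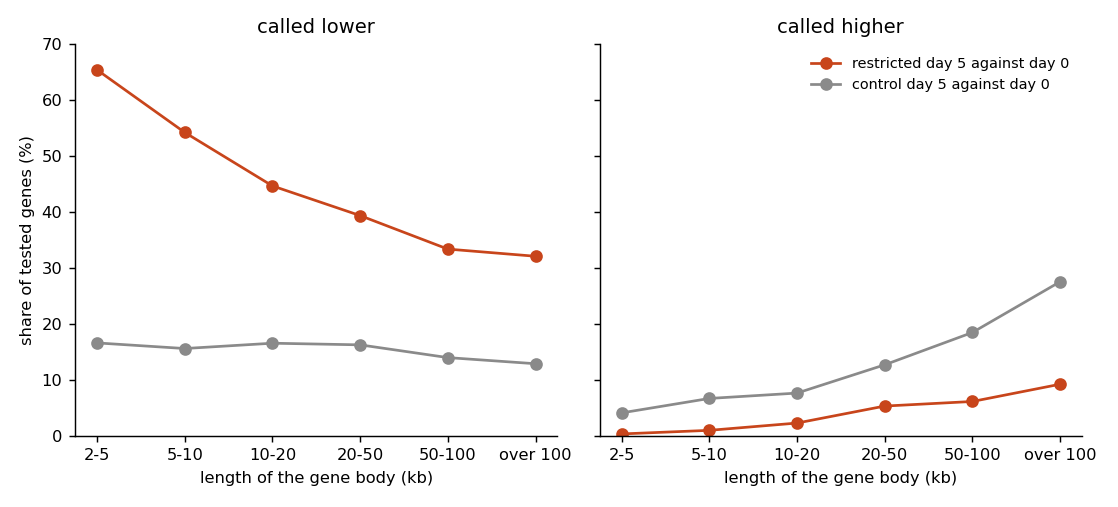
Share of tested genes (vertical axis, %) called lower (left panel) or higher (right panel) than day 0, by length of the gene body in kb, for restricted day 5 (red) and control day 5 (grey). Under restriction the share called lower goes from 65.4% in the shortest class to 32.1% in the longest, and in control medium it stays between 12.9% and 16.6%.

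Relative to its day 0 level, the 5′ part of gene bodies lost most. Each body was cut into 5 equal parts. Over 5898 tested genes of at least 10 kb with a known strand, the 5′-most part had a mean cover of 24.0% and 21.8% at day 0, 10.3% and 10.7% at restricted day 5 and 23.6% and 20.9% at control day 5. The 3′-most part had 70.4% and 65.2%, 60.3% and 61.1%, and 67.6% and 65.6%. The ratio of the 3′-most to the 5′-most part was 2.93 and 2.99 at day 0, 5.88 and 5.73 at restricted day 5 and 2.86 and 3.14 at control day 5. With lists of equal covered length, tried after the data were seen, it was 3.97 and 4.13, 7.13 and 7.02, and 4.35 and 4.66 in the same order. Both restricted libraries lay above all 4 of the others in both versions. Irs1 shows the pattern within a gene that fell, with its 5′-most part covered to 78.6% and 72.7% at day 0 and 0 in both restricted libraries, and its 3′-most part to 93.1% and 85.7% and then 29.9% and 38.6%. Not all genes that fell did so. Under restriction Hmga2 had 22.9% and 13.2% in its 5′-most part and 7.1% and 9.4% in its 3′-most part. Rbl1 had 28.7% and 27.4% in its 5′-most part and 5.27% and 0 in its 3′-most part. Among genes that rose, Myh3 was at 0 in all its parts at day 0. Under restriction it had 0 and 9.27% in its 5′-most part, 99.1% and 78.6% in its middle part and 56.1% and 74.4% in its 3′-most part. In control medium its 5′-most part had 82.7% and 55.0% and its 3′-most part 100% and 100%. Ryr1, which also rose, had 68.65% and 70.5% in its 5′-most part under restriction and 65.4% and 57.5% in its 3′-most part.

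**Figure D5:**
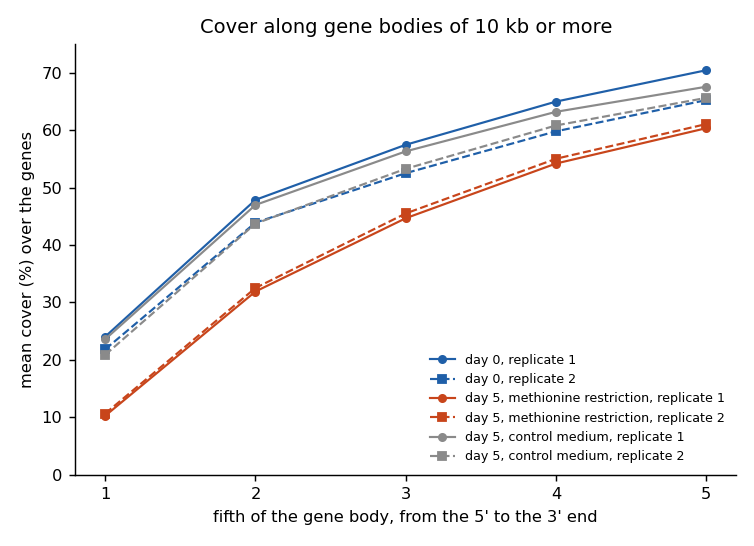
Mean cover (vertical axis, %) of 5 successive parts of the gene body from the 5′ to the 3′ end over 5898 genes, with a line for each of 6 libraries and solid and dashed lines for replicates 1 and 2. The restricted day 5 lines lie lowest throughout, at 10.3% and 10.7% in the 5′-most part against 20.9% to 24.0% in the other libraries.

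The largest differences between the media were looked at last. Htatsf1, an elongation and splicing factor gene, went from 52.2% and 34.1% at day 0 to 67.7% and 75.0% under restriction and to 10.2% and 14.7% in control medium. Its difference between media was 58.9 points (SE 5.90, limma adjusted p = 0.000131). Its rise from day 0 was 28.2 points (adjusted p = 0.0048), not called when only the 4 libraries compared were fitted (0.0524). Helq, a DNA repair helicase gene, had 90.0% and 84.7%, 74.4% and 75.4%, and 28.9% and 34.3%, and its fall from day 0 was not called when any one of the 4 libraries was left out (adjusted p between 0.0552 and 0.182) or in lists of equal covered length (0.665), and centring turned it to a rise of 6.63 points that was not called (0.153). In the other direction, Bhlhe41, a clock-linked repressor, had 60.0% and 53.1%, 0 in both, and 83.3% and 82.5%. With lists of equal covered length the difference of Bhlhe41 from day 0 was no longer called.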

How the data were processed

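H3K36me3 was measured by ChIP-seq in C2C12 cells, with Drosophila chromatin as a spike-in and single-end reads, per the labels' protocols. The authors deposited 1 peak list per library, with each peak's fold enrichment and its −log10 p and −log10 q. The build is GRCm38, per the submitters' processing notes. The peak caller, its control and the filters are not given in the sources used here. No spike-in scaling was applied here, and the input and knockout lists were not used here. Peak lists carry no depth, so precision rests on the spread between replicates.

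Touching peaks were joined on the 19 autosomes and the sex chromosomes, in Python 3.11.15 with numpy 2.4.6, pandas 2.3.3 and scipy 1.17.1. Cover was the percent of each RefSeq gene body (GRCm38.p6) inside them. Of the protein-coding genes, 40.1% overlap another gene, and a shared peak counts for each. Groups were compared with limma 3.58.1 (R 4.3.3; trend and robust settings) on percent cover in the 10 WT libraries, 5 groups with a shared spread and 5 residual degrees of freedom, called at an adjusted p under 0.05. Values are in percent or percentage points. The interval arithmetic and the limma step were tested on simulated data.

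Named genes are the 15 in each direction that differ most, if called and if the compared libraries keep apart, up to 4 called members with the largest difference in each of 16 lists, and the 5 in each direction with the largest difference between media among genes called against day 0. Genes named beside these, such as Myog, Tpm1, Rb1, Mtr and Setd2, were chosen after their values were seen. Members and lists were chosen with earlier results of these data known. Some genes are not reported here. Replicate numbers did not pair the day 0 and restricted day 5 libraries. Alternatives were peaks of −log10 q of at least 3, lists cut by fold enrichment to equal covered length, centring, other filters on cover, length and overlap, peaks merged across 1 kb, other fits and each replicate left out.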

Additional observations from a re-analysis of the deposited data

Results flagged for a closer look

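Among the named genes there were 5, and others that are not named here, in which the change from day 0 went in opposite directions in the 2 media, both changes were called, and the difference between them was called too (limma). The change under restriction minus the change in control medium was -82.9 points for Bhlhe41, -72.6 points for Myod1, -61.1 points for Jph2 and -53.5 points for Cacng1, all lower under restriction and higher in control medium. For Htatsf1 it was 58.9 points, higher under restriction and lower in control medium. Both changes of a gene share the day 0 libraries. The change of Myod1 in control medium, 20.01 points (adjusted p = 0.0428), was not called without day 0 replicate 1 (0.0639), day 0 replicate 2 (0.145) or control day 5 replicate 2 (0.233). That of Cacng1, 16.4 points (0.0294), was not called when any one of the 4 libraries was left out (0.0619 to 0.119). That of Htatsf1, -30.7 points (0.00527), was not called when only the 4 libraries of that contrast were fitted (0.0507) or with peaks of a −log10 q of at least 3 (0.906). In lists of equal covered length it turned to 0.242 points and was not called, so the opposite direction was lost there.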

How the results depend on the processing

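Depth is unknown, and the cause of the shifts below was not tested. For restricted day 5 against day 0, genes overlapping no other gene, fewer by construction, gave 2367 calls, 175 higher and 2192 lower. Higher calls came to 4280 after centring, 1088 with lists of equal covered length and 210 at a mean cover of at least 20%. Lower calls came to 1402 after centring and 2004 with equal covered length. Leaving out 1 replicate gave 3200 to 4253 calls, 236 to 592 higher and 2959 to 3980 lower, with 592 without day 0 replicate 1, 241 without restricted replicate 1 and 236 without restricted replicate 2.

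For restricted against control day 5, genes overlapping no other gene gave 2212 calls, 232 higher and 1980 lower. A −log10 q of at least 3 gave 2897 calls and 2287 lower. Higher calls came to 3757 after centring, 1285 with equal covered length and 271 with peaks merged across 1 kb, and lower calls to 1395 and 1683 in the first pair. Leaving out 1 replicate gave 2799 to 3579 calls, 206 to 249 higher and 2553 to 3330 lower. For control day 5 against day 0, genes overlapping no other gene gave 1295 calls, 513 higher and 782 lower. A mean cover of at least 20% gave 1750 calls and 643 higher, fitting only the 4 libraries gave 1617, 665 and 952 lower, and a −log10 q of at least 3 gave 593 higher. Leaving out 1 replicate gave 1843 to 2613 calls, 738 to 1361 higher and 930 to 1421 lower.

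Library values kept their direction in each setting run. Without 1 replicate the log2 difference ranged from -0.428 to -0.262 for covered length and from -0.444 to -0.202 for peaks, that in marked genes from -2136 to -1712, and the Jaccard difference from 0.119 to 0.146. Deviations of same-numbered day 0 and restricted day 5 libraries correlated at -0.0834 over 9514 genes, so the numbers do not pair them. With the replicate block 4348 genes were called, 355 higher and 3993 lower, 4176 against control day 5 and 2457 for control day 5 against day 0, and covered length, peaks and marked genes gave -0.345, -0.323 and -1924 (exact permutation test, two-sided, p = 0.5, the smallest possible).

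Over 114 named genes, 1633 of 1721 values kept direction and call in the main comparison, 69 lost the call, 4 gained it and 15 reversed. Most of these genes were picked for large called differences, so their stability is largely set by that choice. Of the 4524 calls over all tested genes, 2182 kept call and direction with equal covered length and 1787 after centring. Among the named genes, centring reversed Col4a1 to 2.25 points, Helq to 6.63, Mcm3 to 0.764, Mcm6 to 11.3, Nsd2 to 0.854, Nsd3 to 7.10, Setd3 to 5.72 and Supt6 to 7.94. It put Casq1, Chrng, Mylpf, Myog and Tnni2 at 19.05, which is the centring shift itself since they are at 0. Equal covered length reversed Dkc1 to 29.9 and Setd3 to 5.85, and Htatsf1 in control medium to 0.242. A spread estimated per group, and the body parts under other lists, were added after seeing the data. The block also ended the call of Helq (adjusted p = 0.0642) and that of Myod1 in control medium (0.0607).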

Other observations

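Some genes outside the muscle and replication lists had more cover under restriction than in control medium. Dkc1, the gene of the pseudouridine synthase dyskerin, had 80.1% and 63.4% at day 0, 47.5% and 54.6% at restricted day 5 and 10.4% and 19.97% at control day 5. Its fall from day 0 was not called without day 0 replicate 1 (limma adjusted p = 0.126) or without restricted replicate 1 (0.139), and in lists of equal covered length it turned to a called rise of 29.9 points (0.0496). Its difference between media, 35.9 points, was 22.4 points and not called with peaks of a −log10 q of at least 3 (0.0989). Col4a1, a basement membrane collagen gene of which 32.4% overlaps another gene, had 56.3% and 58.7%, 41.0% and 40.4%, and 7.01% and 5.53%. The groups at day 5 did not overlap in either gene.

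Among the 15 largest increases were genes outside the contractile lists. Per2, a clock repressor gene of which 34.05% overlaps another gene, had 13.4% and 20.3% at day 0, 77.5% and 73.6% at restricted day 5 and 70.1% and 69.2% at control day 5. Chrd, the gene of the BMP antagonist chordin, had 0 and 2.31%, then 61.3% and 65.0%, and 74.1% and 69.2%. Fst, the gene of the activin and myostatin antagonist follistatin, had 0 in both, then 43.2% and 55.4%, and 71.8% and 70.6%. Other genes overlap 28.2% of Chrd and 36.95% of Fst. The rises of Chrd and Fst were not called with peaks of a −log10 q of at least 3 (limma adjusted p = 0.188 and 0.193). Erbb3, a neuregulin receptor gene, had 6.16% and 12.9%, then 56.5% and 62.2%, and 89.0% and 87.2%.

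The day 1 libraries gave the same measure earlier in the course. The ratio of the 3′-most to the 5′-most part of gene bodies was 5.70 and 6.44 at day 1 under restriction and 3.84 and 3.60 at day 1 in control medium, beside 5.88 and 5.73 at restricted day 5.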
